A study of Mus musculus with 17 samples.

Results

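Expression on 9 arrays of 32D cells that carried a mutant human FLT3 was compared with that on 2 arrays of 32D cells that carried wild-type human FLT3 and received FLT3 ligand. 32D is an immortalised mouse myeloblast-like line that depends on IL-3. The arrays of both groups were taken by their sample labels and not by their values, and they make up 11 of the 17 Affymetrix Mouse Exon 1.0 ST arrays of the study. The mutants were internal tandem duplications (ITD) of FLT3, every ITD array held its own mutant, and line numbers 1 to 9 stand for them here. The other 6 arrays, used only to place the comparison, held wild-type FLT3 without ligand, the empty pLXRN retroviral vector and untransduced parental cells (2 arrays each).

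All receptor and vector lines were retroviral populations of many clones, so no group was a single clone. The ITD lines had been moved out of mouse IL-3 2 days after transduction and grew without it. The ligand group came from the wild-type line, which was divided and grown with or without FLT3 ligand at 20 ng/mL. The wild-type, vector and parental cells received mouse IL-3 at 1 ng/mL, and the vector and wild-type lines were selected with G418. Whether IL-3 remained beside the ligand is left unsaid by the protocol. Read literally, the sample title of the ligand group could also mean cells transduced with the ligand itself, and the growth protocol was followed here. In this comparison the mutation of the receptor, the absence of IL-3 and the selection cannot be told apart. Titles name the 2 arrays of each control group biological replicates but do not say if the lines were made separately. The p-values therefore measure the spread between these samples, which for the pairs may be technical.

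The tyrosine kinase receptor FLT3 sits on early blood progenitors. Binding of its ligand pairs 2 receptors at the surface, and the kinase then signals through RAS and ERK, PI3K and AKT, with feedback from phosphatases and adaptors. ITD mutations lie in or near the juxtamembrane region, which normally holds the kinase inactive. They are common in acute myeloid leukaemia, signal without ligand, and are known to activate STAT5 more strongly than the ligand-bound wild-type receptor does.

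Of 20227 genes tested, 1173 (5.8%) were called at an adjusted p under 0.05 (limma, Benjamini-Hochberg over all genes), of which 347 (1.72%) were higher and 826 (4.08%) lower with ITD. With the gene table quantile normalised again, 519 were higher and 618 lower, so the share of calls that were higher was 45.6% there and 29.6% as deposited. At least 2-fold differences were seen for 82 of the called genes that were higher and 155 that were lower. No ITD array overlapped a ligand array for 1128 of the called genes, against 2739 (13.5%) of all genes. The median difference over all genes was -0.02 (log2). The count of calls rested on both ligand arrays, since 243 genes were called without the first and 245 without the second. Where a call is said to be lost or kept without either ligand array, each of the 2 was left out in turn.

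Values below are log2 signals of a gene (the mean of its probe sets), differences are ITD minus wild-type with ligand on the log2 scale, each followed by ± its standard error (SE), and for the ITD arrays the lowest, the median and the highest of 9 are given. Probe sets entered only with a mean above 4.60 over the 17 arrays, and genes near that level are called dim. A difference from arrays at or under that level has no exact size, and such a gene passed the filter through the arrays where it was higher. Levels are not compared between genes, because probe sets differ in brightness.

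Flt3, which here reads the transgene through mouse probe sets, had 7.08, 7.12 and 7.32 on the lowest, the median and the highest ITD array, against 6.89 and 6.88 on the ligand arrays. Wild-type cells without ligand averaged 6.76, vector cells 5.19 and parental cells 5.25. The ITD arrays lay above the ligand arrays without overlap, and the difference of 0.27 ± 0.09 was not called (adjusted p = 0.0858). Of the 19 Flt3 probe sets used, 2 were higher and 1 was lower on every ITD array than on both ligand arrays. The receptor was human, and a mean over mouse probe sets understates its level and may understate the difference. The probe sets that rose most from vector to ITD cells differed by 0.64, 0.69, 0.67, 0.30 and 0.36. Their means were 12.55, 12.69, 9.86, 8.97 and 6.71 on the ITD arrays, against 3.30, 5.22, 3.39, 3.15 and 3.62 in vector cells. The other probe sets differed by -0.56 to 0.52. Differences of single probe sets were not tested.

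The labelled cell type was checked against markers of myeloblasts and progenitors. The primary granule genes Mpo, Prtn3 and Ctsg averaged 10.96, 11.996 and 12.02 on the ITD arrays, against 11.56, 12.11 and 12.29 on the ligand arrays, and none was called. Kit and Cd34, which mark stem and progenitor cells, averaged 5.71 and 5.55 on the ITD arrays, against 5.75 and 5.59 on the ligand arrays. Of the 8 measured genes used to check the cell type, 3 were called. Myb, a factor of proliferating progenitors, rose by 0.63 ± 0.16 (adjusted p = 0.0267), and Cebpa, a factor of granulocyte commitment, rose by 0.47 ± 0.13 (adjusted p = 0.0361). Spi1, which encodes the myeloid factor PU.1, fell by 0.57 ± 0.11 (adjusted p = 0.00371).

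The 20 named rises, the largest called rises without overlap, included granule proteins of mast cells, basophils and eosinophils and transcription factors of the erythroid and megakaryocyte lineages, and many promoters of such genes are known to bind GATA factors. The promoters of 4 of them are shown with the GATA motif in capitals (the letters GATA with A or T before them and A or G after them, on either strand). They run from 250 bases before to 50 after the gene start (RefSeq, GRCm38.p6, 5′ to 3′ on the strand of the gene).
Prss34 (chr17:25298144-25298443, plus strand): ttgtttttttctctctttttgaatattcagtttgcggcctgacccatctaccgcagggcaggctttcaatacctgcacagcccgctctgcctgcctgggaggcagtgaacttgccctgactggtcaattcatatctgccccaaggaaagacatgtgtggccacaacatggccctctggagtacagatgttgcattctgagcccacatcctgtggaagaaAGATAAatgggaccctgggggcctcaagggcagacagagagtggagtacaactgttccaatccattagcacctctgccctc
Cpa3 (chr3:20242132-20242431, minus strand): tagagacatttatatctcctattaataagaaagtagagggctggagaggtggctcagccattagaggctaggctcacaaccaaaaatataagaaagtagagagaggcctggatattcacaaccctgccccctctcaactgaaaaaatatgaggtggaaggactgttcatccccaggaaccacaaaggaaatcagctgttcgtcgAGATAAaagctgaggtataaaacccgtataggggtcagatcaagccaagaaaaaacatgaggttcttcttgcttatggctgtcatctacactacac
Klf1 (chr8:84901732-84902031, plus strand): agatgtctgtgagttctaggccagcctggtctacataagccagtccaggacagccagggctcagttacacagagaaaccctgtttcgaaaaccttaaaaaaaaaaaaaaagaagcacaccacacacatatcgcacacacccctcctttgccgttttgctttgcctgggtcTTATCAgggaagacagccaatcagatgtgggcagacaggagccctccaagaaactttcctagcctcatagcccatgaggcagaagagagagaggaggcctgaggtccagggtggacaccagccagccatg
Gfi1b (chr2:28621933-28622232, minus strand): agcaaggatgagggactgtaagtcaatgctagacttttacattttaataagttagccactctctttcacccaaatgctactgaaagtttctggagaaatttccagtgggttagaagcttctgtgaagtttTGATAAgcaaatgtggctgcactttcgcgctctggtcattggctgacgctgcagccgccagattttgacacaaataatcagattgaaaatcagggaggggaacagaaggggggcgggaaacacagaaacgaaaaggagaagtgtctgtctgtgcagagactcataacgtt
The GATA motif stood in 8 of 18 promoters (44.4%) of the 20 named rises, in 11 of 19 (57.9%) of the erythroid and megakaryocyte list and in 14 of 25 (56%) of the mast cell and basophil list. It stood in 5 of 10 promoters (50%) of the eosinophil list, in 7 of 21 (33.3%) of the late granule and neutrophil list, in 3 of 17 (17.6%) of the 20 named falls and in 29.8% of all 32851 mouse promoters of this length. Of the 20 rises 16 matched the promoter table, as did 16 of the 20 falls, and some genes have several promoters. A match is a description of these letters and not a site.

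Mast cell and basophil genes split into a few very large rises and a majority without a call. Of 20 measured members 4 rose and none fell, against 1.72% of all genes higher, with a list median of 0.13 against -0.02 over all genes. Prss34, a serine protease of basophils and mast cells, had 9.24, 10.92 and 11.99 on the lowest, the median and the highest ITD array, against 6.02 and 5.77 on the ligand arrays. Every ITD line was far above both ligand arrays, and the difference was 4.93 ± 0.42 (adjusted p = 2.87e-06). Gzmb, which encodes granzyme B, a protease of cytotoxic cells also made by mast cells, had 8.04, 9.93 and 10.80 on the ITD arrays, against 6.14 and 6.21 with ligand (3.44 ± 0.56, adjusted p = 0.00133). Cpa3, the carboxypeptidase of mast cell granules, had 8.68, 9.08 and 9.89 on the ITD arrays, against 6.29 and 6.50 with ligand (2.76 ± 0.25, adjusted p = 5.09e-06). Neither gene overlapped between the groups. Gata2, a transcription factor of progenitors and mast cells, had 9.44, 10.05 and 10.28 on the ITD arrays, against 8.90 and 8.88 with ligand (1.08 ± 0.14, adjusted p = 0.000282).

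The mast cell genes that did not pass the test included the chymase gene Cma1 (0.16) and the tryptase gene Tpsb2 (0.14). Fcer1a, the alpha chain of the high-affinity IgE receptor, differed by 1.70 and Cd200r3 by -1.67, and neither was called. All 4 rises kept their calls without either ligand array. The mean of the list ranged between 7.44 and 7.92 on the ITD arrays and between 6.985 and 6.999 on the ligand arrays. It was 7.01 and 7.10 in wild-type cells without ligand, 7.70 and 7.73 in vector cells, and 8.56 and 8.63 in parental cells. In bulk RNA, more cells of a type and more RNA per cell cannot be told apart.

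Eosinophil granule genes rose with large differences, while the listed receptor genes Il5ra and Ccr3 and the factor gene Cebpe did not pass the test. Gata1, a lineage factor of eosinophils among other cells, rose and is given with the erythroid genes below. Ear1, Ear2, Ear10 and Siglecf were listed but not measured. Of 9 measured members 4 rose and none fell, against 1.72% of all genes higher, and the other 5 differed by 0.03 to 0.50. Epx, the eosinophil peroxidase, had 9.94, 11.88 and 12.56 on the lowest, the median and the highest ITD array, against 7.53 and 7.74 on the ligand arrays (4.04 ± 0.45, adjusted p = 5.55e-05). Prg2, which encodes major basic protein, had 7.96, 11.23 and 11.71 on the ITD arrays, against 5.86 and 6.04 with ligand (4.70 ± 0.66, adjusted p = 0.000421). Both genes were lowest on line 5, which still lay above the ligand arrays. Prg3, a homologue of Prg2, lies 4564 bases from it on chromosome 2 (GRCm38.p6). Prg3 had 5.67, 8.31 and 9.10 on the ITD arrays, against 4.91 and 4.98 with ligand, where it was dim (2.96 ± 0.60, adjusted p = 0.00652). Ear6, an eosinophil-associated ribonuclease of a family of close copies, had 4.60, 7.45 and 8.22 on the ITD arrays, against 3.96 and 4.68 with ligand, where the groups overlapped (2.81 ± 0.68, adjusted p = 0.0199). It was at or under 4.60 on 1 ligand array and dim on the other.

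Il5ra, the receptor chain that carries the eosinophil growth signal, differed by 0.50 and Ccr3, the eotaxin receptor, by 0.34, and neither was called. Without either ligand array 2 of the 9 eosinophil genes were called, Epx and Prg2, while Prg3 had an adjusted p of 0.116 and 0.114 and Ear6 one of 0.275 and 0.138. Close copies within the Prg and Ear families may share probe signal. The mean of the list ranged between 6.58 and 8.34 on the ITD arrays, against 5.95 and 6.06 on the ligand arrays. It stood at 6.08 and 6.20 in wild-type cells, 7.43 and 7.47 in vector cells, and 8.65 and 8.88 in parental cells.

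Genes of the erythroid and megakaryocyte lineages rose, with transcription factors and platelet receptor genes among them and terminal erythroid genes not. Of 18 measured members 8 rose and none fell, against 1.72% of all genes higher, and the list median was 0.63. Gata1, the lineage factor of red cells, megakaryocytes, mast cells and eosinophils, had 7.55, 9.01 and 9.38 on the lowest, the median and the highest ITD array, against 6.83 and 6.79 on the ligand arrays (2.04 ± 0.29, adjusted p = 0.000504). Klf1, a factor of red cell genes, had 6.30, 7.58 and 7.89 on the ITD arrays, against 5.79 and 5.50 with ligand (1.80 ± 0.28, adjusted p = 0.000953). For both genes line 7 was the lowest ITD line and came closest to the ligand arrays, without overlap. Gfi1b, a repressor needed for both lineages, had 9.15, 10.20 and 10.84 on the ITD arrays, against 8.28 and 8.32 with ligand (1.85 ± 0.25, adjusted p = 0.000352).

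Zfpm1, the cofactor FOG1 of GATA1, rose by 1.53 ± 0.25 (adjusted p = 0.00151), and Gp9, a platelet glycoprotein, by 1.56 ± 0.35 (adjusted p = 0.0139). Itga2b, the integrin alpha chain of platelets, rose by 1.26 ± 0.19 (adjusted p = 0.000707), and Epor, the erythropoietin receptor, by 0.77 ± 0.18 (adjusted p = 0.017). Genes of later red cells were not called, among them Alas2, the first enzyme of erythroid haem synthesis (-0.08), and Slc4a1, the red cell anion exchanger (-0.03). Tfr2, a transferrin receptor outside the list, rose by 1.72 ± 0.27 (adjusted p = 0.00109). The list count was 4 without the first ligand array and 6 without the second. Epor had an adjusted p of 0.185 and 0.198 in these fits, Gp9 one of 0.0829 and 0.288, and Zfpm1 one of 0.0507 and 0.0486.

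**Figure D1:**
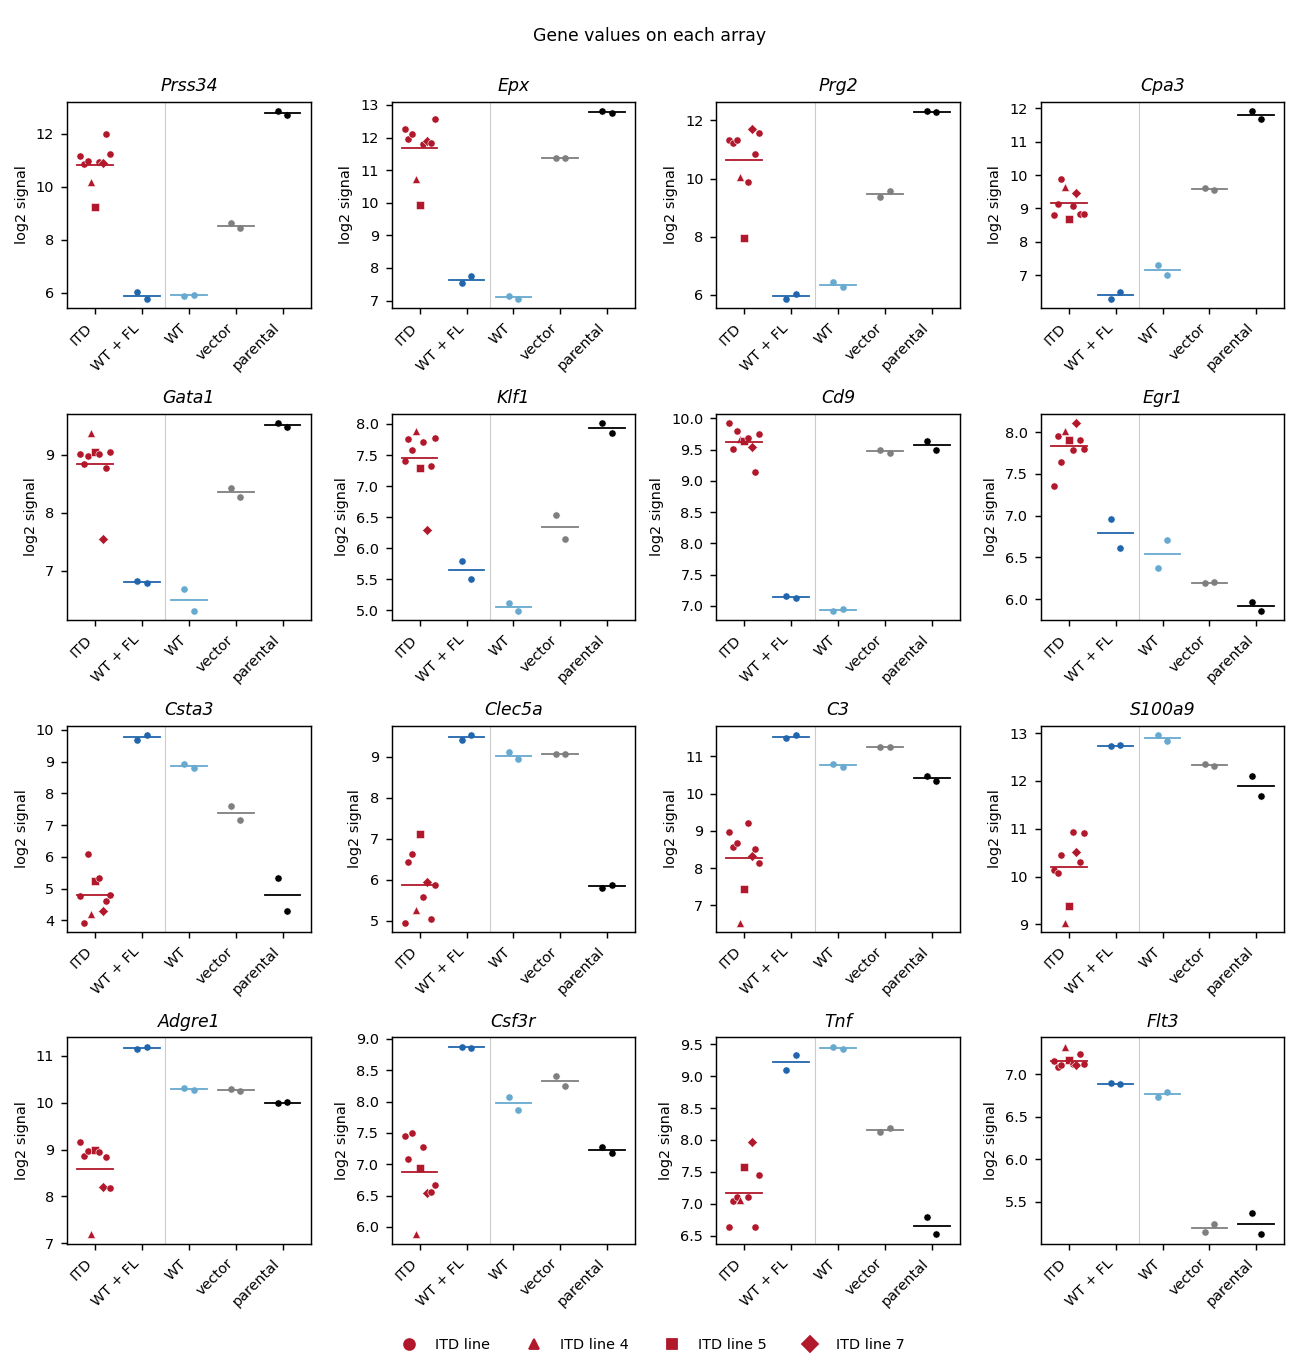
Log2 signal of 16 genes (vertical axes) on each array of the 5 groups, with ITD lines at the left and wild-type FLT3 with ligand (WT + FL) beside them; points are arrays, bars are group means, and lines 4, 5 and 7 have their own symbols. For Prss34 the ITD arrays lie between 9.24 and 11.99, above the ligand arrays at 6.02 and 5.77, and for C3 they lie between 6.54 and 9.22, below the ligand arrays at 11.49 and 11.58.

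Surface and enzyme genes completed the named rises. Angpt1, the angiopoietin that binds the receptor TIE2, had 9.94, 10.66 and 11.13 on the lowest, the median and the highest ITD array, against 7.74 and 8.02 on the ligand arrays (2.80 ± 0.22, adjusted p = 1.03e-06). Cd9, a tetraspanin of platelets and mast cells, had 9.14, 9.66 and 9.92 on the ITD arrays, against 7.16 and 7.12 with ligand (2.49 ± 0.14, adjusted p = 5.29e-08). No array overlapped for either gene. Trpm2, a cation channel opened by oxidative stress, rose by 2.10 ± 0.30, and 37 of its 43 used probe sets were higher on every ITD array than on both ligand arrays. Alox5, the 5-lipoxygenase of leukotriene synthesis, rose by 2.30 ± 0.49 (adjusted p = 0.00874), but its adjusted p was 0.135 without the first and 0.132 without the second ligand array.

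Prss28, a serine protease gene 8478 bases from Prss34 on chromosome 17 (GRCm38.p6), rose by 2.55 ± 0.34 (adjusted p = 0.000298). It was dim on the ligand arrays (4.73 and 4.80). Trav17, a variable segment of the T cell receptor alpha locus, rose by 1.91 ± 0.25, and Cyp2b10, a cytochrome P450, by 1.71 ± 0.27. Mettl7a1, a methyltransferase-like gene, rose by 2.03 ± 0.45 and the channel gene Pkd2l1 by 1.76 ± 0.39. Ptgs2, the inducible cyclooxygenase, had 5.51, 6.37 and 7.53 on the ITD arrays, against 4.73 and 4.76 with ligand (1.75 ± 0.44, adjusted p = 0.0248). Ptgs2 was dim with ligand, and with the stricter filter on dim probe sets its difference was 0.18. The calls of Mettl7a1, Pkd2l1 and Ptgs2 were lost without either ligand array, with adjusted p values of 0.165 and 0.148, 0.164 and 0.147, and 0.225 and 0.224. Those of Cyp2b10 (adjusted p = 0.0619 without the first) and Tfr2 (adjusted p = 0.0509 without the second) were lost without 1 of them.

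Among integrins and tetraspanins 5 of 20 measured members rose and 1 fell, against 1.72% of all genes higher and 4.08% lower. Besides Cd9 and Itga2b, Itga6, an integrin chain that binds laminin, rose by 0.77 ± 0.14 and Itga4, a chain of VLA-4, by 0.62 ± 0.17 (adjusted p = 0.0442). Itgb7, a partner of Itga4 in gut homing, fell by 0.62 ± 0.11 (adjusted p = 0.00177). Without the first ligand array 2 of the list rose and none fell, without the second 3 rose and none fell, and without 1 ITD line at a time 3 to 7 rose. Itga4 lost its call without either ligand array (adjusted p = 0.216 and 0.396) and without some single ITD lines.

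The 20 named falls included genes of mature granulocytes and monocytes, and many promoters of such genes are known to bind C/EBP factors. The promoters of 3 of them are shown with the C/EBP motif TTNNGNAA, on either strand, in capitals (RefSeq, GRCm38.p6, the same window as above).
S100a9 (chr3:90695672-90695971, minus strand): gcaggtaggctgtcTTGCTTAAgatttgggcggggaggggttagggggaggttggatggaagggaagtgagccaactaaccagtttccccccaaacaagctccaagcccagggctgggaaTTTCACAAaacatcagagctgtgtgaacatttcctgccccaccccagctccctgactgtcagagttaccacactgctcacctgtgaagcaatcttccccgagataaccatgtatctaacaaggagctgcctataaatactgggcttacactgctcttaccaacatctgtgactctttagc
C3 (chr17:57228087-57228386, minus strand): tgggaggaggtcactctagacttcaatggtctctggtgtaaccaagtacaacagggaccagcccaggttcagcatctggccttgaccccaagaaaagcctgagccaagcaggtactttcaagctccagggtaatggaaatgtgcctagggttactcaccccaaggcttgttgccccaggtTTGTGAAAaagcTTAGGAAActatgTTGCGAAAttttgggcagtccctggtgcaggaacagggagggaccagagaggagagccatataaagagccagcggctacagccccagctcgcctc
Slpi (chr2:164356458-164356757, minus strand): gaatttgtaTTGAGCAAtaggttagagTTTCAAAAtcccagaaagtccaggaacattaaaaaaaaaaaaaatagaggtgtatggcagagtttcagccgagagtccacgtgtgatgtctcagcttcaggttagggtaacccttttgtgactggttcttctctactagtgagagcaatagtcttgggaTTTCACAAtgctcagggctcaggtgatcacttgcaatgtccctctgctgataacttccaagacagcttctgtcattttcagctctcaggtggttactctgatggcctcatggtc
This motif stood in 13 of 17 promoters (76.5%) of the named falls and in 15 of 21 (71.4%) of the late granule and neutrophil list. It stood in 7 of 18 (38.9%) of the named rises, in 8 of 10 (80%) of the eosinophil list, in 9 of 25 (36%) of the mast cell and basophil list, in 7 of 19 (36.8%) of the erythroid and megakaryocyte list, and in 40.7% of all promoters.

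Late granule and mature neutrophil genes fell in 9 of 22 measured members and rose in none, against 4.08% of all genes lower, with a list median of -0.61. S100a9, a subunit of calprotectin, had 9.04, 10.31 and 10.93 on the lowest, the median and the highest ITD array, against 12.73 and 12.75 on the ligand arrays (-2.54 ± 0.35, adjusted p = 0.000421). S100a8, its partner, had 9.39, 11.02 and 11.74 on the ITD arrays, against 12.70 and 12.91 with ligand (-1.86 ± 0.40, adjusted p = 0.0101). Neither overlapped between the groups, and line 4 was lowest for both. Csf3r, the receptor for G-CSF, had 5.88, 6.93 and 7.51 on the ITD arrays, against 8.88 and 8.86 with ligand (-1.99 ± 0.29, adjusted p = 0.00067). Lcn2, the siderophore-binding lipocalin of secondary granules, fell by 1.27 ± 0.31 (adjusted p = 0.0209), and Itgb2l, an integrin beta chain, fell by 1.31 ± 0.22 (adjusted p = 0.00148).

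Other genes of secondary and tertiary granules were not called, among them Camp, which encodes the cathelicidin peptide (0.20), Ngp (0.69) and Mmp8, the neutrophil collagenase (0.28). Ltf, the gene of lactoferrin, differed by -0.84 and was not called. Without either ligand array 5 of the 22 genes were lower, and S100a8 (adjusted p = 0.114 and 0.183) and Lcn2 (adjusted p = 0.197 and 0.222) were not among them. Of 10 primary granule genes 2 fell and none rose, against 4.08% of all genes lower. Lyz2, the lysozyme of macrophages and granulocytes, fell by 0.97 ± 0.18 (adjusted p = 0.00422), and its near copy Lyz1, with which it may share probe signal, fell by 0.88 ± 0.13 (adjusted p = 0.000714). Without either ligand array Lyz1 kept its call and Lyz2 lost it (adjusted p = 0.0591 and 0.123).

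Stefin genes, which encode inhibitors of cysteine proteases and lie together on mouse chromosome 16, were among the falls. Of 14 measured stefins, cystatins and cathepsins 6 fell and none rose, against 4.08% of all genes lower. Csta3 had 3.93, 4.76 and 6.08 on the lowest, the median and the highest ITD array, against 9.68 and 9.84 on the ligand arrays (-4.95 ± 0.40, adjusted p = 1.51e-06). Csta2, which lies 3774 bases from Csta3 (GRCm38.p6), had 3.99, 5.52 and 6.35 on the ITD arrays, against 8.77 and 9.15 with ligand (-3.56 ± 0.42, adjusted p = 9.02e-05). At or under 4.60 were 3 ITD arrays for Csta3 and 1 for Csta2. Stfa2, read by 1 probe set, had 2.20, 3.83 and 5.46 on the ITD arrays, against 9.34 and 9.51 with ligand (-5.49 ± 0.62, adjusted p = 6.86e-05), and 6 of its 9 ITD arrays were at or under 4.60. Stfa2l1 fell by 2.02 ± 0.29 (adjusted p = 0.000504). These genes are close copies, and the probe sets may not keep them apart.

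Ctss, the cysteine protease cathepsin S, had 5.54, 6.07 and 8.02 on the ITD arrays, against 9.50 and 9.45 with ligand (-3.21 ± 0.46, adjusted p = 0.000494). The groups did not overlap, and line 7 was the highest ITD line. The lysosomal cathepsins of most cells were not called, with Ctsb at -0.22 and Ctsd at -0.14. All 6 falls of this list were called without the first ligand array and 5 without the second.

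Complement, acute-phase and protease inhibitor genes fell in 5 of 11 measured members and rose in none, against 4.08% of all genes lower. C3, the central complement component, had 6.54, 8.51 and 9.22 on the lowest, the median and the highest ITD array, against 11.49 and 11.58 on the ligand arrays (-3.27 ± 0.45, adjusted p = 0.000421), and all 43 of its used probe sets were lower on every ITD array. Slpi, an inhibitor of neutrophil elastase, had 6.99, 7.95 and 8.58 on the ITD arrays, against 10.13 and 9.99 with ligand (-2.16 ± 0.26, adjusted p = 0.000114). Hp, haptoglobin, had 6.62, 7.92 and 8.43 on the ITD arrays, against 9.83 and 9.88 with ligand (-2.02 ± 0.31, adjusted p = 0.00098). No array overlapped for any of these genes. Cfp, properdin of the alternative complement pathway, fell by 2.63 ± 0.25 (adjusted p = 1.05e-05). Cp, the copper protein ceruloplasmin, fell by 3.01 ± 0.61 (adjusted p = 0.00617), with an adjusted p of 0.104 without the first and 0.119 without the second ligand array. Cp was at or under 4.60 on 3 ITD arrays. In these fits 3 of the 11 list members were lower.

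Receptors of the C-type lectin and paired receptor families fell in 9 of 22 measured members and rose in none. Over all genes 4.08% were lower, and the list median was -0.97. Clec5a, a lectin that signals through DAP12, had 4.96, 5.89 and 7.12 on the lowest, the median and the highest ITD array, against 9.41 and 9.54 on the ligand arrays (-3.60 ± 0.41, adjusted p = 6.86e-05). Trem1, a receptor that amplifies inflammatory signals, had 4.40, 5.74 and 6.27 on the ITD arrays, against 8.20 and 8.40 with ligand (-2.70 ± 0.32, adjusted p = 9.02e-05). Both pairs of ligand arrays lay above every ITD array. Clec4b2 fell by 1.71 ± 0.30, Clec4n (dectin-2) fell by 1.65 ± 0.32 and Trem3 fell by 1.57 ± 0.29. At or under 4.60 were 1 ITD array for Trem1, 5 for Clec4b2 and 3 for Clec4n. In each fit with 1 ligand array 5 of the 22 were lower. The adjusted p of Clec4b2 was 0.0661 and 0.0513 there, that of Clec4n 0.125 and 0.0677, and that of Trem3 0.0716 and 0.0883.

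Markers of monocytes and macrophages fell in 3 of 19 measured members and rose in none, against 4.08% of all genes lower. The count was 5 without line 4, 6 without line 7, and 5 of 14 with the stricter filter on dim probe sets. Adgre1, which encodes the macrophage antigen F4/80, had 7.19, 8.86 and 9.16 on the lowest, the median and the highest ITD array, against 11.14 and 11.19 on the ligand arrays (-2.57 ± 0.35, adjusted p = 0.000342). Cd14, the co-receptor for lipopolysaccharide, had 4.40, 4.70 and 5.13 on the ITD arrays, against 7.05 and 6.89 with ligand (-2.18 ± 0.19, adjusted p = 3.85e-06), and 2 of its ITD arrays were at or under 4.60. Csf1r, the M-CSF receptor, fell by 0.71 ± 0.09 (adjusted p = 0.000325). Markers of tissue macrophages were not called, with Mrc1 at 0.01, Marco at 0.07 and C1qa at 0.22. The mean of the list ranged between 6.17 and 6.71 on the ITD arrays, against 6.87 and 6.92 on the ligand arrays, and was 6.77 and 6.86 in wild-type cells without ligand.

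Receptors for chemoattractants moved in both directions, with 2 of 15 measured members higher and 3 lower, against 1.72% and 4.08% of all genes. Ccr1, a receptor for inflammatory CC chemokines, had 4.65, 5.85 and 6.54 on the lowest, the median and the highest ITD array, against 8.69 and 8.92 on the ligand arrays (-3.21 ± 0.43, adjusted p = 0.00031). P2ry13, a receptor for ADP, had 5.11, 5.90 and 6.26 on the ITD arrays, against 8.34 and 8.36 with ligand (-2.60 ± 0.23, adjusted p = 3.85e-06). The groups were far apart for both genes. C5ar1, the receptor for complement C5a, fell by 1.34 ± 0.14. Cxcr4, which holds progenitors in the marrow, rose by 0.69 ± 0.16 (adjusted p = 0.0169) and Ltb4r1, a leukotriene B4 receptor, by 0.60 ± 0.14 (adjusted p = 0.0204). The 3 falls were called without either ligand array, whereas Cxcr4 (adjusted p = 0.19 and 0.191) and Ltb4r1 (adjusted p = 0.242 and 0.18) were not.

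Among 25 chemokines and cytokines 2 fell (4.08% of all genes were lower) and none rose. The count of falls was 6 without line 7 and 1 without either ligand array. Tnf had 6.63, 7.10 and 7.97 on the lowest, the median and the highest ITD array, against 9.10 and 9.34 on the ligand arrays (-2.05 ± 0.25, adjusted p = 0.000125). Ccl5, a chemokine for T cells and monocytes, fell by 1.18 ± 0.20 (adjusted p = 0.00164), with adjusted p values of 0.0507 and 0.0509 without the first and the second ligand array. Ltb, lymphotoxin beta, had 7.82, 8.17 and 8.74 on the ITD arrays, against 10.98 and 10.95 with ligand (-2.71 ± 0.18, adjusted p = 3.13e-07). Ccl3 differed by -1.66 and Cxcl2 by -0.95, and neither was called.

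The remaining named falls belonged to no single family. Tespa1, a signalling protein of thymocytes, had 4.73, 5.49 and 7.45 on the lowest, the median and the highest ITD array, against 8.95 and 9.13 on the ligand arrays (-3.38 ± 0.44, adjusted p = 0.000214). Ccn3, a matricellular protein, had 4.49, 5.03 and 5.70 on the ITD arrays, against 8.18 and 8.28 with ligand (-3.16 ± 0.21, adjusted p = 3.24e-07). Ccn3 was at or under 4.60 on 1 ITD array, and the groups did not overlap for either gene. Ankrd22, an ankyrin repeat gene, fell by 3.10 ± 0.30, S100a4, a calcium-binding protein, fell by 2.32 ± 0.36, and Ifitm6, an interferon-induced transmembrane gene, fell by 2.59 ± 0.48. The adjusted p of Ifitm6 was 0.0668 and 0.0955 without the first and the second ligand array.

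**Figure D2:**
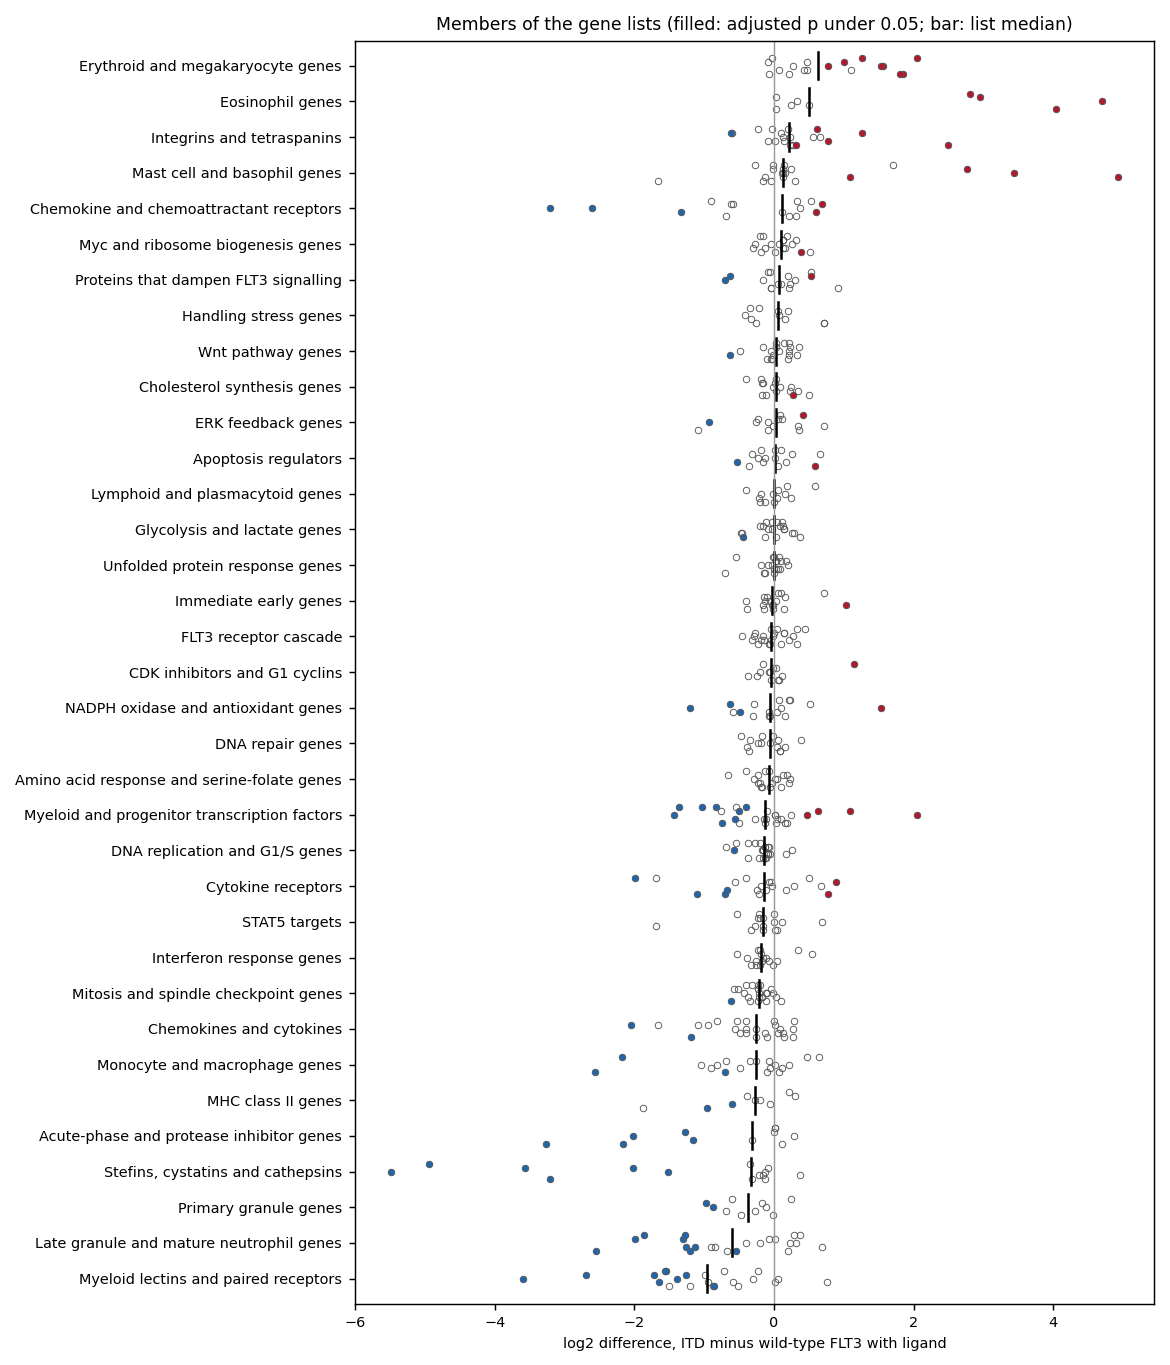
Difference between ITD and wild-type FLT3 with ligand on the log2 scale (horizontal axis) for every measured member of the 35 gene lists (rows, ordered by list median); filled points were called at an adjusted p under 0.05, open points were not, and black bars are list medians. The erythroid and megakaryocyte list stands highest with a median of 0.63, and the myeloid lectin and paired receptor list lowest with -0.97.

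Transcription factors of myeloid and progenitor cells moved in both directions, with 4 of 28 measured members higher and 8 lower. Over all genes 1.72% were higher and 4.08% lower. Besides Gata1, Gata2, Myb and Cebpa, which rose, Id2, an inhibitor of helix-loop-helix factors, had 8.28, 8.89 and 9.46 on the lowest, the median and the highest ITD array, against 10.19 and 10.32 on the ligand arrays (-1.43 ± 0.23, adjusted p = 0.00115). Gfi1, a repressor needed for neutrophil development and the paralogue of Gfi1b, had 7.32, 7.86 and 8.43 on the ITD arrays, against 9.27 and 9.11 with ligand (-1.37 ± 0.19, adjusted p = 0.00047). The paralogues Gfi1 and Gfi1b therefore differed in opposite directions, each without overlap of the groups. Ikzf1, the factor Ikaros, fell by 1.03 ± 0.14 (adjusted p = 0.000325). Runx1 (0.18), Irf8 (0.02) and Cebpe (0.03) were not called. With the first ligand array left out 2 rose and 3 fell, and with the second left out 2 rose and 5 fell, and the rises were Gata1 and Gata2 in each case.

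Cytokine receptor genes rose in 2 of 20 measured members and fell in 4, against 1.72% of all genes higher and 4.08% lower. Csf2rb2, the mouse beta chain specific for IL-3, had 9.39, 10.20 and 10.87 on the ITD arrays, against 9.28 and 9.39 with ligand (0.88 ± 0.23, adjusted p = 0.0337). Il3ra, the IL-3 receptor alpha chain (0.29), and Csf2rb, the shared beta chain (0.67), were not called. Il2rb, a receptor chain for IL-2 and IL-15, fell by 1.103 ± 0.18 (adjusted p = 0.00115). Il2ra, a known target of STAT5, had 5.32, 7.30 and 10.76 on the ITD arrays, against 9.22 and 9.46 with ligand, and was not called (adjusted p = 0.331). The 2 rises, Csf2rb2 (adjusted p = 0.293 and 0.226) and Epor, were not called without either ligand array.

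Components of the receptor cascade and known STAT5 targets held no call, against 5.8% of all genes. For lists of this size that is close to the share of all genes, and it does not show that they did not differ. Among the 23 measured cascade genes the largest differences were -0.46 for Sos1 and 0.44 for Grb2, the exchange factor and adaptor that lead to RAS. Over all genes the same limma fit gave 3887 at an unadjusted p under 0.05. With the table quantile normalised again, or without line 7, 2 of the 23 were higher. The mean of the 16 STAT5 targets ranged between 7.95 and 8.21 on the ITD arrays, against 8.27 and 8.30 on the ligand arrays. Their list median was -0.16, and the ITD mean was the lower one for 11 of them, against 53.1% of all genes. These targets included Cish at -0.53, Socs2 at -0.21 and Pim1 at -0.33. With the stricter filter on dim probe sets 2 of them were lower, without line 1 or line 7 1 was lower, and without line 4 1 was higher. Of 16 proteins that dampen the signal 1 rose and 2 fell, against 1.72% of all genes higher and 4.08% lower. Ptprj, a receptor phosphatase that acts on FLT3, rose by 0.53 ± 0.11 (adjusted p = 0.00998). The adaptor gene Dok1 fell by 0.63 ± 0.14 (adjusted p = 0.0153) and Rgs2, a regulator of G protein signalling, fell by 0.70 ± 0.15 (adjusted p = 0.00965). All 3 calls were lost without either ligand array (adjusted p between 0.108 and 0.273).

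Of 14 ERK feedback genes 1 rose and 1 fell, against 1.72% of all genes higher and 4.08% lower. Spred1, an inhibitor of RAS signalling, rose by 0.41 ± 0.10 (adjusted p = 0.0274) and Ier3 fell by 0.94 ± 0.20 (adjusted p = 0.0102). Dusp6 (-0.22), Spry2 (-0.09) and Spry4 (0.05), which ERK induces and which dampen it, were not called. Egr1 was the only call among 18 immediate early genes (5.6%, close to the 5.8% of all genes). It had 7.35, 7.90 and 8.11 on the lowest, the median and the highest ITD array, against 6.96 and 6.62 on the ligand arrays (1.04 ± 0.15, adjusted p = 0.000671). The ITD arrays lay above the ligand arrays without overlap, and Fos (0.05), Junb (-0.14) and Myc (0.15) were not called. Egr1 had an adjusted p of 0.00908 without the first and 0.0537 without the second ligand array, and Spred1 and Ier3 were called in neither fit (adjusted p between 0.131 and 0.257).

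Of 23 mitosis genes 1 was called (4.3%) and of 24 DNA replication genes 1 was called (4.2%), both lower with ITD, shares close to the 4.08% of all genes that were lower. The ITD mean was the lower one for 21 of the mitosis genes and 22 of the replication genes, against 53.1% of all genes. Without 1 ITD line at a time the mitosis calls numbered between 1 and 4, with 4 without line 5. The mean of the mitosis genes was 9.36, 9.79 and 9.96 on the lowest, the median and the highest ITD array, against 9.92 and 10.00 on the ligand arrays and 9.46 and 9.56 in wild-type cells without ligand. Aurka, a mitotic kinase, fell by 0.62 ± 0.16 (adjusted p = 0.026), and Cdc45, a subunit of the replicative helicase, fell by 0.58 ± 0.12 (adjusted p = 0.00675). Cdk6, a G1 kinase, had 10.75, 11.48 and 11.63 on the ITD arrays, against 10.16 and 10.22 with ligand (1.15 ± 0.17, adjusted p = 0.000619), and all 28 of its used probe sets were higher on every ITD array. The calls of Aurka and Cdc45 were lost without either ligand array (adjusted p between 0.116 and 0.234), and that of Cdk6 was kept.

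The ligand arrays were set against wild-type cells without ligand, which received IL-3. Since it is unsaid whether IL-3 remained beside the ligand, added ligand and a possible loss of IL-3 cannot be told apart here. This contrast shares the ligand arrays with the one above. In the limma fit of all 17 arrays 0 genes were called, the smallest adjusted p was 0.141, and 1555 genes had an unadjusted p under 0.05. ITD against wild-type without ligand gave 1559 calls (7.71%) in the same fit. With only the 4 wild-type arrays in the fit, and so only the spread within these pairs, 949 genes were called (4.69%), 690 higher and 259 lower with ligand. In that fit 19 of 23 mitosis genes, 13 of 24 DNA replication genes and 8 of 15 DNA repair genes were higher with ligand and none of them lower. Their medians were 0.44, 0.37 and 0.36 for ligand minus wild-type, while the same lists had medians of 0.23, 0.17 and 0.28 for ITD minus wild-type and -0.22, -0.15 and -0.06 for ITD minus ligand. The pairs with and without ligand did not overlap for 47.8% of all genes.

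Genes named for their difference between ligand and no ligand included Cd209c, a C-type lectin. It had 6.17, 6.66 and 8.73 on the lowest, the median and the highest ITD array, against 8.97 and 9.10 on the ligand arrays (-2.08 ± 0.46, adjusted p = 0.011), and a mean of 6.39 in wild-type cells. Line 5 was the highest ITD line and came closest to the ligand arrays. Tgm2, transglutaminase 2, had 11.05, 12.36 and 12.63 on the ITD arrays, against 10.91 and 10.87 on the ligand arrays (1.28 ± 0.30, adjusted p = 0.0191), and a mean of 12.19 in wild-type cells. For both genes the wild-type cells without ligand stood nearer the ITD lines than the ligand arrays, a position that naming by the ligand difference favours. The calls of Cd209c and Tgm2 were lost without either ligand array. Serpina3f (-0.32), Akr1c19 (-1.26), Try10 (0.69) and Ctla2a (0.06) were named for their ligand difference and were not called between ITD and ligand.

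**Figure D3:**
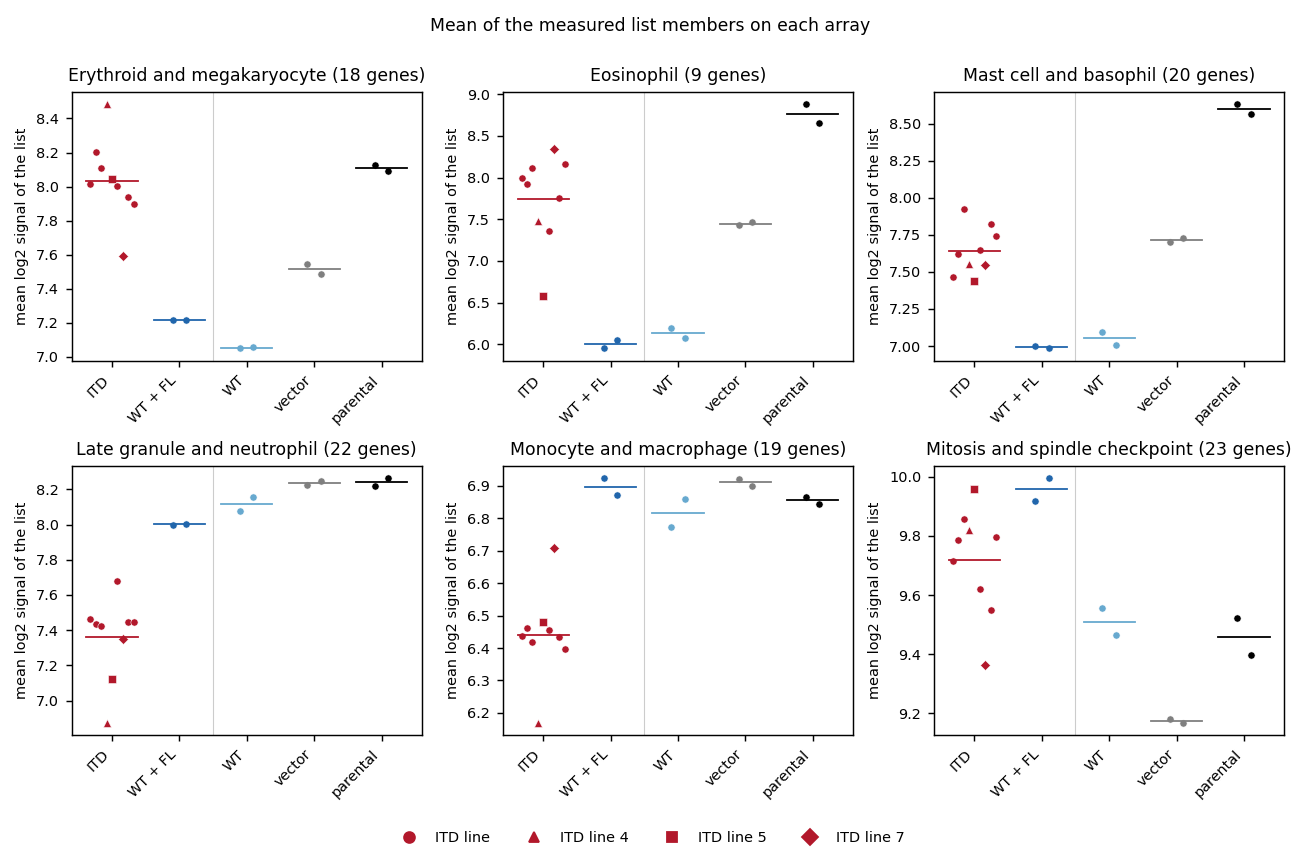
Mean log2 signal of the measured members of 6 gene lists (vertical axes) on each array of the 5 groups; points are arrays, bars are group means, and lines 4, 5 and 7 have their own symbols. The erythroid and megakaryocyte mean lies between 7.59 and 8.49 on the ITD arrays and at 7.22 on both ligand arrays, and the mitosis mean lies between 9.36 and 9.96 on the ITD arrays, against 9.92 and 10.00 with ligand.

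The vector and parental arrays, which carry no FLT3 transgene, show on which side of the comparison the cells without receptor stood. A gene was counted as nearer ITD when the parental and the vector mean both lay nearer the ITD mean than the ligand mean. Of the 1173 called genes 639 (54.5%) stood nearer ITD by this count, 227 (19.4%) nearer the ligand group, and 307 (26.2%) had one on each side. Over all genes the shares were 42.4%, 26.6% and 31.0%. Wild-type cells without ligand stood nearer the ligand group for 927 of the called genes and nearer ITD for 246 (21.0%), against 46.3% of all genes nearer ITD.

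Among the 20 named rises 13 stood nearer ITD, 1 nearer the ligand group, and 6 had one on each side. For 16 of the rises the parental mean was at or above the ITD mean. For 8 of the 20 named falls it was at or below the ITD mean. The share of all genes with such a parental mean was not counted. These counts therefore describe only the named genes, which were picked by their ITD and ligand values. Prss34 averaged 12.77 in parental and 8.54 in vector cells, and Gata1 averaged 9.51 and 8.36. Both were thus higher in cells that had no receptor than in both wild-type groups. The vector arrays of Prss34 still lay below its lowest ITD array (9.24). Ptgs2 was the rise that stood nearer the ligand group, with means of 4.60 in parental and 4.91 in vector cells. Among the 20 named falls 12 had one on each side, and 4 (C3, Adgre1, S100a9 and Slpi) stood nearer the ligand group. S100a9 averaged 12.34 in vector and 11.90 in parental cells and C3 averaged 11.25 and 10.41, so for these genes the ITD lines were the ones apart. For Csta2, Tespa1, Ccr1 and Ccn3 the cells without receptor stood nearer ITD. For Csta2 this was by a narrow margin, since its vector arrays (7.04 and 7.29) lay about midway between the ITD and the ligand arrays. Egr1 averaged 6.54 in wild-type, 6.19 in vector and 5.92 in parental cells, so the ITD lines stood above every other group.

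**Figure D4:**
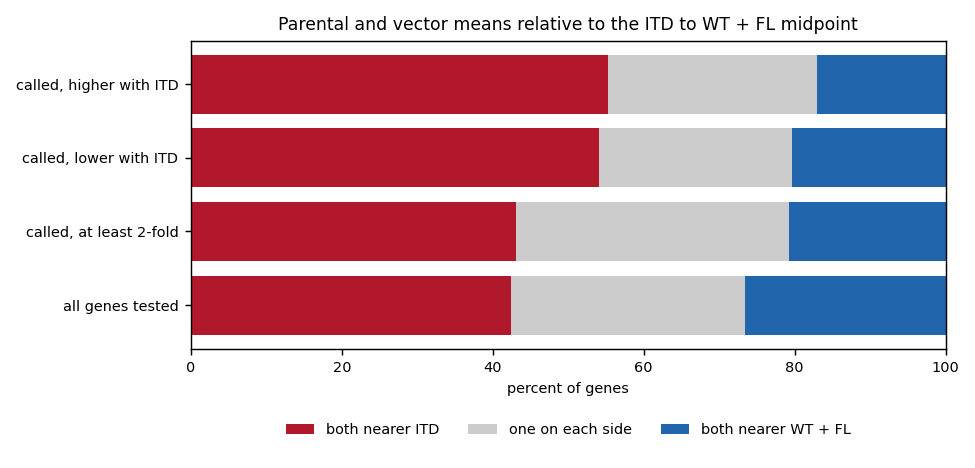
Percent of genes (horizontal axis) for which the parental and vector means were both nearer the ITD mean (red), both nearer the mean of wild-type FLT3 with ligand (blue) or one on each side (grey), for called genes by direction and size and for all genes. Both stood nearer ITD for 55.3% of the called genes that were higher with ITD, 54.1% of those that were lower and 42.4% of all genes.

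The 9 ITD lines differed among themselves more than the arrays of a pair. The median SD over genes was 0.20 across the ITD lines (log2, n = 9), against 0.091 for the ligand pair and 0.12 pooled over the 4 control pairs, and the pairs may be cultures of 1 line. Across genes, which are not independent, ITD arrays correlated with the ligand arrays at a median r of 0.968 and with each other at 0.977. Line 5 was the most like the ligand arrays (mean r 0.975) and line 8 the least (0.963). In the 20 named rises the line nearest the ligand arrays was line 7 for 9 genes and line 5 for 8 genes. In the 20 named falls the line farthest from them was line 4 for 12 genes. Without line 5, line 7 or line 9 the calls numbered 1500, 1471 and 1462.

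Several lists held no call, against 5.8% of all genes. None of 20 genes of the unfolded protein response, 19 of the amino acid response, 15 of DNA repair, 17 of the interferon response, 11 of handling stress and 13 lymphoid and plasmacytoid markers was called. For lists of this size that is close to the share of all genes, and it does not show that they did not differ. The interferon list had a lower ITD mean for 14 of its 17 genes and a median of -0.19. Without single ITD lines the unfolded protein, DNA repair, interferon and lymphoid lists held 1 call at most. Within the NADPH oxidase and antioxidant list Ncf1, the oxidase subunit p47phox, had 8.26, 8.64 and 8.84 on the lowest, the median and the highest ITD array, against 9.78 and 9.78 on the ligand arrays (-1.21 ± 0.13, adjusted p = 2.48e-05). Ncf4 (p40phox) fell by 0.63 ± 0.13 and Cyba (p22phox) fell by 0.48 ± 0.10. Cybb (gp91phox) rose by 1.53 ± 0.41 (adjusted p = 0.0367), but it was read by 1 probe set with 3.92 and 4.09 on the ligand arrays, dim values, and its difference was 0.04 with no filter on dim probe sets. Antioxidant genes such as Gclc (0.52) and Nqo1 (0.24) were not called. Ncf1 kept its call without either ligand array, Cyba kept it without the second alone, and Ncf4 (adjusted p = 0.11 and 0.173) and Cybb (adjusted p = 0.295 and 0.246) lost it.

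The glycolysis, cholesterol, Myc and Wnt lists held 1 call each (5%, 6.2%, 5.6% and 5.3%), shares close to the 5.8% of all genes, so the values below describe these genes and not the lists. Pfkm, a phosphofructokinase, fell by 0.44 ± 0.10 (adjusted p = 0.00959) among 20 glycolysis genes. Srebf2, the regulator of cholesterol synthesis, rose by 0.28 ± 0.07 (adjusted p = 0.0376) among 16 genes of that pathway, while the enzyme genes Hmgcs1 (-0.40) and Idi1 (0.50) were not called. Cad, the first enzyme of pyrimidine synthesis, rose by 0.38 ± 0.10 among 18 Myc and ribosome biogenesis genes, and Axin1, of the complex that degrades beta-catenin, fell by 0.63 ± 0.11 among 19 Wnt genes. The apoptosis and MHC class II lists held 2 calls each (13.3% and 22.2%, against 5.8% of all genes). Of 15 apoptosis regulators Bcl2l11, which encodes the killer protein BIM, rose by 0.59 ± 0.17 (adjusted p = 0.0447) and Bak1, a pore-forming killer protein, fell by 0.53 ± 0.11 (adjusted p = 0.00557). Of 9 MHC class II genes H2-DMb1 fell by 0.96 ± 0.14 and H2-DMb2, a close copy, fell by 0.61 ± 0.17 (adjusted p = 0.0457). Without either ligand array H2-DMb1 kept its call and Pfkm, Srebf2, Cad, Bcl2l11, Bak1 and H2-DMb2 lost it (adjusted p between 0.0584 and 0.618), while Axin1 lost it without the first (adjusted p = 0.0611) and kept it without the second (adjusted p = 0.0488).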

How the data were processed

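Affymetrix Mouse Exon 1.0 ST arrays were hybridised with total RNA of 17 cultures of 32D cells. Per the submitters' processing notes, the authors ran RMA in Affymetrix Expression Console 1.1, and they deposited 1 log2 signal for each probe set and array. This method corrects background, equalises the arrays and combines probes. The genome build and any filter of the authors are not given in the sources used here. Array medians lay between 4.63 and 4.69, and precision is set by how many arrays there are.

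The platform annotation gave a symbol to 325444 of 1256831 probe sets. The 931387 without a symbol and 6684 with several were not used. Symbols were updated through RefSeq (18006 of 22296 current, 4227 changed, 63 kept as they were). Only probe sets whose 17-array mean exceeded the median of all (4.599) were kept, 237584 in number. Averaging those of a gene gave 20227 genes, with 9 probe sets at the median and 1 for 1987 genes.

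Each of the 5 groups received 1 mean in limma 3.58.1 (R 4.3.3, lmFit and eBayes with trend, 12 residual and 4.49 prior degrees of freedom), so that the ITD lines supply most of the shared spread. Tests were two-sided, and the fit was tested on simulated data. The threshold for a call was 0.05 after Benjamini-Hochberg adjustment. Named were Flt3, the 20 largest rises and the 20 largest falls among called genes without overlap and with at least 2 probe sets, predicted gene models passed over, up to 5 called members of each of 35 gene lists (the 2 largest differences where fewer than 2 were called), and the 3 largest ligand differences in each direction. Other genes, given in the text mainly as list members without a call, were chosen after their values were seen. Of 626 listed genes 583 were measured, and 95 of these (16.3%) were called. The choice of this comparison, whose arrays the labels fix, and of the gene lists was made with earlier results of these data known.

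Alternatives were another normalisation, median centring, other filters and summaries, other variance models, fewer arrays in the fit, each array of the compared groups left out, and the replicate number as a covariate. Promoters and positions came from RefSeq tables (GRCm38.p6), and 42 of the genes examined for neighbours had a position.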

Additional observations from a re-analysis of the deposited data

Results flagged for a closer look

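Among 126 named genes 11 had 1 ITD line that stood apart from the other 8, by the gap to the nearest line over the range of all 9. Chance flags about 1 in 20 such groups. Line 7 stood low for Gata1 (7.55), Klf1 (6.30) and H2ax (10.83), and high for Ankrd22 (7.47) and Try10 (7.47). Line 4 stood low for Trem1 (4.40), Adgre1 (7.19) and Hk3 (8.63). Line 5 stood low for Prg2 (7.96) and high for Tespa1 (7.45), and line 6 stood high for Chil1 (7.47). For Gata1, Klf1, Ankrd22, Prg2 and Tespa1 the outlying line was the one nearest the ligand arrays, and for Trem1 and Adgre1 it was the one farthest from them. Each mutant had 1 array, so a line cannot be told apart from its array.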

How the results depend on the processing

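Without 1 array of the compared groups the calls between ITD and ligand numbered between 243 and 1500, against 1173. The lowest counts came without a ligand array, when that group had 1 array that was assumed to vary like the other groups. With the 11 ITD and ligand arrays alone 678 genes were called. The other settings gave between 900 and 1386 calls, and every gene called in the main setting and another kept its direction. The shared replicate numbers did not pair the samples by the correlation of their deviations, and with the replicate block 985 genes were called. Ligand against no ligand gave 0 calls with all 17 arrays, 1 after quantile normalisation again and 949 with the 4 wild-type arrays alone. Only genes without a call reversed their difference. These were Mx1 with the stricter filter (0.0433), Try10 without the second ligand array, and Ctla2a with no filter (-0.0846), with the stricter filter (-0.0874) and without the first ligand array, line 4 (-0.13), line 5 (-0.0126) or line 7 (-0.0137). Without 1 array at a time Try10 ranged from -0.13 to 1.51 and Ctla2a from -0.17 to 0.29. The cause was not tested. Of 96 named genes with a call 77 kept it in all settings that left out no array, 90 without each ITD line and 48 without each ligand array.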
